A study of Mus musculus with 4 samples.

Results

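The 10 genes described here are transcripts of MHC class II, B cells and myeloid cells, measured in sorted naive CD4 T cells as a view of the purity of the sort. They are Cd74, H2-Aa, H2-Ab1, H2-Eb1 and Ciita for MHC class II, Cd79a, Cd79b, Ighm and Igkc for B cells, and Lyz2 for myeloid cells. They were chosen by name, for what other cell types are known to express, when earlier results of these data were known. These are 10 of the 48858 mouse genes summed from the deposited transcript estimates. The libraries came from DKO mice, labelled Btg1f/f Btg2f/f-CD4-Cre, and from WT littermates labelled Btg1f/f Btg2f/f, with 2 libraries of each. Both groups therefore carried the floxed alleles of Btg1 and Btg2, which encode related antiproliferative factors that recruit the CCR4-NOT deadenylase to messenger RNA, and only DKO mice carried the Cre. That Cre is driven by Cd4 regulatory sequences and acts in the T lineage, so a B cell or a myeloid cell that passed the sort would not be expected to carry the deletion. The cells had been sorted as positive for TCRb and CD4, negative for CD25, high for CD62L and low for CD44. The sources used here give neither the age and sex of the mice nor the organ the cells came from.

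MHC class II molecules present peptides to CD4 T cells. Their alpha and beta chains pair in the endoplasmic reticulum with the invariant chain, encoded by Cd74, and the coactivator CIITA switches on the whole gene family in B cells, dendritic cells and macrophages. Resting mouse T cells are known to express little or none of it, unlike activated human T cells. B cells carry an antigen receptor made of immunoglobulin heavy and light chains with the signalling partners CD79A and CD79B, and Lyz2 encodes the lysozyme of macrophages and neutrophils.

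Total RNA depleted of ribosomal RNA had been sequenced, and the estimated counts summed to 16567226 and 17827631 in the DKO libraries and 14970076 and 13889894 in the WT libraries. Protein-coding genes took 44.7% and 48.9% of the DKO counts and 38.9% and 35.7% of the WT counts, a difference that moves with genotype. Btg1 had 103 and 125 counts in DKO and 7378 and 5443 in WT, and Btg2 had 5 and 7 counts in DKO and 1295 and 1067 in WT, as the labels state. T cell genes were abundant in every library. The 8 defining T cell markers summed to 2232 and 2147 CPM (counts scaled to the normalised library size) in DKO and 1760 and 2243 CPM in WT. Of 4 genes read as a check of the gate, Foxp3, Il2ra (which encodes CD25) and Cd44 had both DKO libraries above both WT libraries, as 19.8% of tested genes did, and Cd8a overlapped. None of the 3 was called (edgeR adjusted p of 0.181 for Foxp3, 0.327 for Il2ra and 0.102 for Cd44). Their log2 differences, DKO minus WT, were 1.87, 1.24 and 0.86, with unadjusted edgeR p of 0.00153, 0.00677 and 0.000371. Il2ra stood at 6.09 and 5.84 CPM in DKO and 1.88 and 3.21 CPM in WT. Foxp3, the regulatory T cell factor, stood at 5.15 and 10.5 CPM in DKO and 1.80 and 2.52 CPM in WT, and Cd44 at 29.5 and 28.8 CPM in DKO and 15.1 and 16.9 CPM in WT.

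Sequences are shown for transcripts and promoters of genes described below. The first pair is the coding end of the mu heavy chain, since nearly all immunoglobulin counts fell on Ighm. Its transcripts differ only from there on. Ighm lies on chromosome 12 from 113418558 to 113422730 on the minus strand of GRCm38. Its 2 transcripts with counts, a secreted one and one with the membrane exons, share their first 1305 bases in the GENCODE annotation. Lower case below marks the last 30 shared bases, 113420929 to 113420958, and capitals mark the coding bases specific to each transcript, 59 in the secreted and 122 in the membrane transcript. The transcripts are 1493 and 1698 bases long, and their specific bases past the coding part are not printed.
Ighm, secreted: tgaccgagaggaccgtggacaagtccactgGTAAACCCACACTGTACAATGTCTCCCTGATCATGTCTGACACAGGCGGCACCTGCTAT
Ighm, membrane: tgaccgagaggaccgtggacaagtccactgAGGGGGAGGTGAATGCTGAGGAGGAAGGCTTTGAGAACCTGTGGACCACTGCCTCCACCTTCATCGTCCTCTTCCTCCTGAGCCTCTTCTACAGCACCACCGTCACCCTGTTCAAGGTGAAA

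The second set is the promoters of class II genes, which carry the elements through which RFX (at the X box), NF-Y (at the Y box) and CIITA act. H2-Ob is included because it stood above the class II members in counts and had the smallest unadjusted p of the other pathway genes. It was not called, and its log2 difference of 1.10 was no larger than that of Ciita, 1.11. Whether the promoter letters bear on the level of H2-Ob or on its difference was not tested. Of the 10 members, 4 had an entry in the RefSeq promoter table for GRCm38.p6. A window of 100 bases that ends shortly before the start is printed for H2-Aa and H2-Eb1 beside H2-Ob. Capitals mark GCAAC, letters of the X box, and ATTGG, the Y box read on this strand (CCAAT on the other). The letters and their spacing were chosen after the sequences had been read.
H2-Aa, chr17:34287834-34287933, minus strand: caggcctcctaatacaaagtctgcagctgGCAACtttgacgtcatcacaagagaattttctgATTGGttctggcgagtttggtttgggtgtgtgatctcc
H2-Eb1, chr17:34305757-34305856, plus strand: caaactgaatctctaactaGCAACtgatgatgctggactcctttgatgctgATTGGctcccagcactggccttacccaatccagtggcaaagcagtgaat
H2-Ob, chr17:34238795-34238894, plus strand: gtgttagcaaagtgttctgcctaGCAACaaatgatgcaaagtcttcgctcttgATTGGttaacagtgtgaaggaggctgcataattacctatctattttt

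The letters between GCAAC and ATTGG numbered 28 in H2-Aa, 27 in H2-Eb1 and 25 in H2-Ob. Searched on both strands over the 250 bases before the start, GCAAC alone was in 29.9% of 32851 promoters and CCAAT in 33.8%. GCAAC followed by ATTGG after 15 to 35 letters was in 0.874% of them. The pair was also found in H2-Oa and H2-Eb2, and not in the windows of H2-DMa, H2-DMb1, H2-DMb2, Cd79a or Lyz2. A match describes these letters and is not evidence that a factor binds there.

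Levels of the members were compared between genes in TPM, which is per transcript length. Ighm averaged 9.74 TPM over the 4 libraries, Cd74 0.174, Igkc 0.1215, Cd79a 0.0586, H2-Ab1 0.0343, H2-Aa 0.0186, H2-Eb1 0.0185, Cd79b 0.0178, Lyz2 0.0156 and Ciita 0.0056 TPM. The ranges over libraries of neighbours in this order overlapped, except for Ighm and Cd74. The 9 members other than Ighm together came to 0.631% and 0.927% of the summed TPM of the CD3 chains in the DKO libraries, and to 0.596% and 0.943% in the WT libraries. In bulk RNA, fewer cells of a type and less RNA per cell cannot be told apart, so these shares are not shares of cells.

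Of the 10 members, 3 (Ighm, Cd74 and Cd79a) had enough counts to enter the test across genes, a quasi-likelihood F-test in edgeR, adjusted by Benjamini-Hochberg over 12863 genes, and 7 did not. None of the 3 was called at an adjusted p below 0.05 and 0 had an unadjusted p below 0.05, against 0.124% of all tested genes called (0.0544% higher and 0.07% lower) and 8.18% at that unadjusted p. DESeq2 also called 0 members, against 1.15% of its genes. Of all 10 members, 7 had overlapping DKO and WT CPM values, 2 (Cd79a and Ciita) had both DKO libraries above both WT libraries, and 1 (H2-Aa) had both below. Among tested genes, 19.8% stood above in that sense and 18.8% below. For a single value, 2 libraries against 2 cannot reach an exact permutation p under 0.333, and the p-values of the fit measure only the spread between these libraries. At 3 counts or fewer in at least 1 library stood 8 members, whereas 2 (Ighm and Cd74) had more than 10 counts in each.

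**Figure D1:**
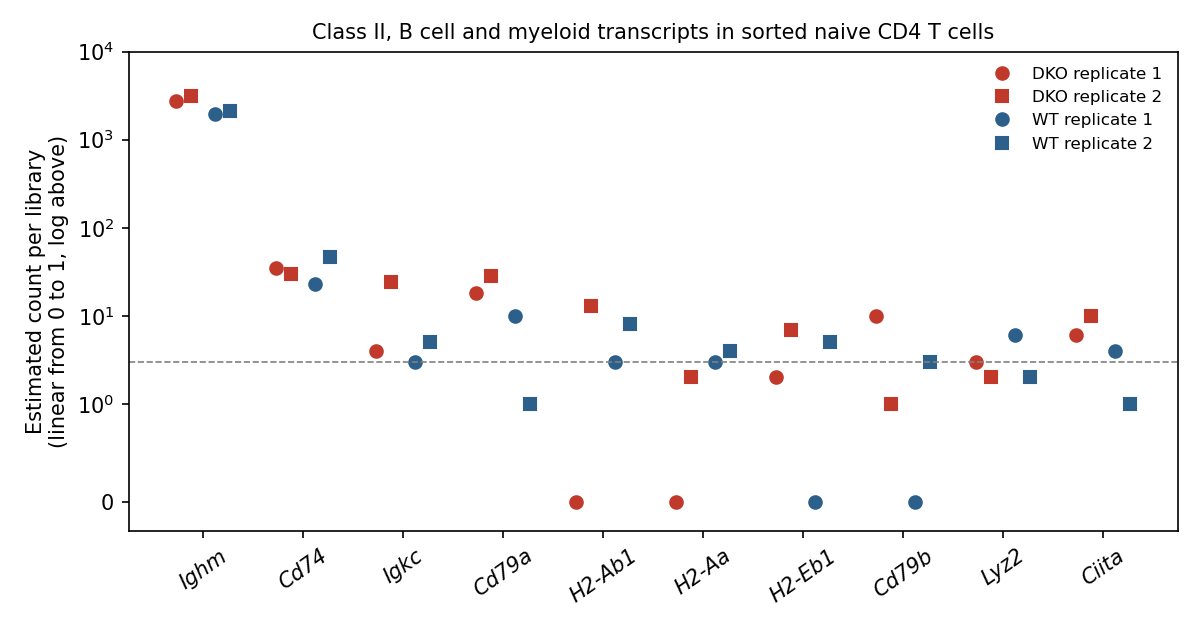
Estimated counts of each of the 10 members in each library, DKO left of WT, on a log axis that is linear near the origin. Ighm lies between 1935 and 3153 counts in every library, and every other member is at 46 counts or fewer.

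The plot of member counts shows the gap between Ighm and the rest. It also shows why fold changes of the rest rest on few reads, with DKO and WT points interleaved for most genes.

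Among the class II genes, Cd74, the invariant chain that occupies the peptide groove during assembly, was the most abundant. Cd74 had 35 and 30 counts in DKO libraries, or 2.07 and 1.39 CPM, and 23 and 46 counts in WT libraries, or 1.66 and 3.99 CPM. The groups overlapped, with the lowest CPM in a DKO library and the highest in a WT library. Its level averaged 1.73 ± 0.480 CPM in DKO and 2.82 ± 1.65 CPM in WT (SD, n = 2 each). The log2 difference, DKO minus WT, was -0.70 (SE 0.548, edgeR adjusted p = 0.812), and without the second WT library it was 0.05. Within Cd74, the coding transcript of 1410 bases was listed at 0 counts in both DKO libraries and at 8.1 and 13.2 counts in the WT libraries, which is 35.3% and 28.6% of the gene's WT counts. The remaining counts, and all of those in DKO, were on the transcript of 1218 bases. At these counts the split between transcripts rests on few reads and was not tested.

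The classical class II chains were near the limit of detection. H2-Ab1, the I-A beta chain, had 0 and 13 counts in DKO and 3 and 8 in WT. H2-Aa, the I-A alpha chain that pairs with it, had 0 and 2 counts in DKO and 3 and 4 in WT. H2-Eb1, the I-E beta chain, had 2 and 7 counts in DKO and 0 and 5 in WT. The first DKO library thus had no count on either I-A chain, and the second had most of the DKO reads of all 3 genes. All 4 counts of H2-Aa in the second WT library were on a transcript of 664 bases annotated as processed and not coding. In the fit without a filter on low counts, the log2 differences were -0.49 for H2-Ab1, -2.30 for H2-Aa and 0.12 for H2-Eb1, with edgeR adjusted p of 0.961, 0.92 and 0.99. Leaving out 1 library turned the sign for H2-Ab1 and H2-Eb1, with ranges of -5.67 to 0.57 and -0.90 to 5.04. For H2-Aa the range was -5.00, without the second DKO library, to -1.47, without the first.

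Ciita, the master coactivator of the family, had 6 and 10 counts in DKO, or 0.355 and 0.464 CPM, and 4 and 1 in WT, or 0.288 and 0.0867 CPM. Both DKO libraries were above both WT libraries by a few counts, with a log2 difference of 1.11 (edgeR adjusted p = 0.92), which was 2.17 without the first WT library and 0.56 without the second. Ciita overlaps Dexi on the opposite strand, which had 48 and 69 counts in DKO and 42 and 38 in WT. Whether the estimates used strand is not given in the sources used here, so reads of the pair may not be told apart. The 5 class II members together had 43 and 62 counts in DKO and 33 and 64 in WT. Their summed level was 2.54 and 2.88 CPM in DKO against 2.38 and 5.55 CPM in WT, a log2 ratio of -0.55. The second WT library set that ratio, which was 0.19 without it. Relative to the summed TPM of the CD3 chains, the 5 genes came to 0.316% and 0.357% in DKO and 0.340% and 0.735% in WT.

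Ighm, the constant region of the IgM heavy chain, was the exception among the 10. Ighm had 2761 and 3153 counts in DKO and 1935 and 2098 in WT. After normalisation Ighm stood at 163 and 146 CPM in DKO and 140 and 182 CPM in WT. The WT values enclosed those of DKO, with means of 155 ± 12.1 CPM in DKO and 161 ± 30.0 CPM in WT (SD, n = 2 each). The log2 difference was -0.05 (SE 0.164, edgeR adjusted p = 0.968). With the libraries scaled by total count it was 0.29, where the median of all tested genes was 0.32. This level placed Ighm above 96.9% of the tested genes in CPM. Per length it amounted to 49.4% and 43.5% of the TPM of Cd3e, a chain of the T cell receptor complex, in DKO libraries and to 45.6% and 50.4% in WT libraries.

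The other immunoglobulin genes were not counted in proportion to Ighm. Igkc, the constant region of the kappa light chain that most mouse B cells use, had 4 and 24 counts in DKO and 3 and 5 in WT. There were thus 690 and 131 counts of Ighm per count of Igkc in DKO libraries, and 645 and 420 in WT libraries. Ighd, the delta constant region that naive B cells express with mu, had 7 and 17 counts in DKO and 6 and 2 in WT. Ighm made up 99.5% and 98.7% of the counts on immunoglobulin constant regions in DKO and 99.5% and 99.5% in WT.

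Immunoglobulin variable segments were almost without counts. All 218 annotated immunoglobulin V genes summed to 2 and 16 counts in DKO and 12 and 2 in WT, on 19 genes in all. These were 0.072% and 0.501% of the constant-region counts in DKO and 0.617% and 0.095% in WT. T cell receptor genes, measured the same way in the same libraries, gave V counts of 5549 and 6636 in DKO and 3572 and 4088 in WT, on 136 of 144 genes. These were 49.6% and 51.6% of the T cell receptor constant-region counts in DKO, against 48.3% and 49.1% in WT. The ratio of V to C counts therefore differed between the receptor families in each of the 4 libraries. Transcripts of the mu constant region that lack a rearranged variable exon are known in lymphocytes as germline transcripts, and whether the Ighm counts belong to them was not tested. Pax5, the B cell identity factor, had 4 and 4 counts in DKO and 4 and 11 in WT.

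**Figure D2:**
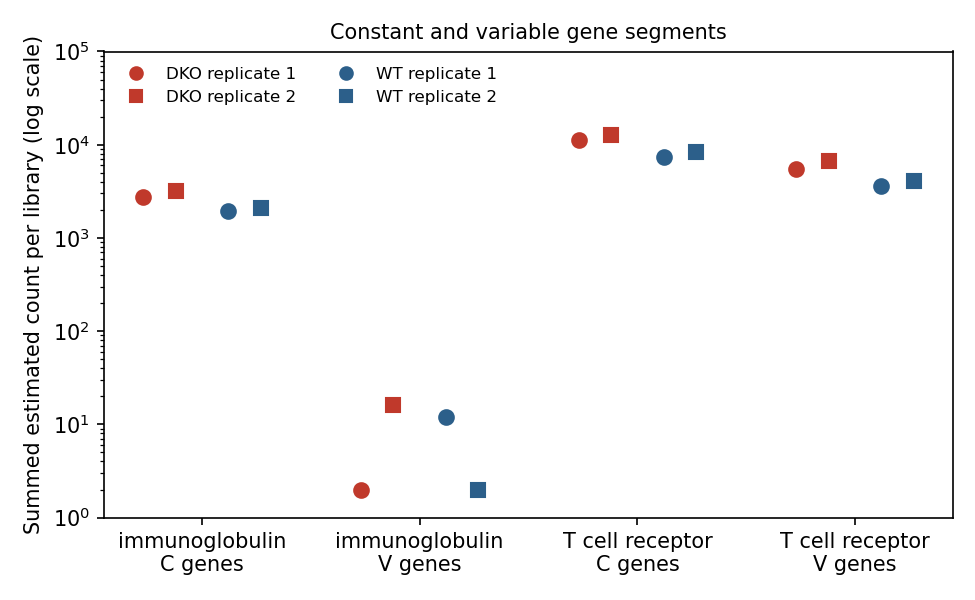
Estimated counts on variable (V) and constant (C) gene segments of the immunoglobulin and T cell receptor loci, DKO left of WT, each point 1 library, on a log axis. Immunoglobulin C counts lie between 1945 and 3194 and immunoglobulin V counts between 2 and 16, whereas T cell receptor V counts are 48.3% to 51.6% of the C counts.

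The segment plot sets these sums side by side. The immunoglobulin V points lie far below the immunoglobulin C points in every library, and the T cell receptor points lie close together.

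The Ighm counts were divided by transcript in the deposited estimates, and only the coding part of the ends that differ is printed above. The secreted transcript had 1485 and 1618 counts in DKO and 1161 and 1213 in WT, and the membrane transcript had 1276 and 1535 in DKO and 774 and 885 in WT. The membrane transcript thus took 46.2% and 48.7% of Ighm counts in DKO and 40.0% and 42.2% in WT, or 47.5 ± 1.74% and 41.1 ± 1.55% (SD, n = 2 each). The groups did not overlap, but the smallest exact permutation p for 2 against 2 is 0.333. The effective length that the estimates use also moved with genotype, at 1361 and 1352 bases for the secreted transcript in DKO and 1370 and 1374 bases in WT. Its part in the difference was not tested.

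Of the signalling partners of the B cell receptor, Cd79a had 18 and 28 counts in DKO and 10 and 1 in WT. Both DKO libraries, at 1.06 and 1.30 CPM, were above both WT libraries, at 0.721 and 0.0867 CPM. The log2 difference was 1.49 (SE 0.945, edgeR adjusted p = 0.747), and leaving out 1 library at a time gave 0.71 to 3.66. The value was 0.71 without the second WT library, which had the single count, and 3.66 without the first. Cd79b, which pairs with Cd79a, had 10 and 1 counts in DKO and 0 and 3 in WT, and the 10 were all on its transcript of 1195 bases. Its groups overlapped, with a log2 difference of 1.31 (edgeR adjusted p = 0.92, no filter) that was -1.24 without the first DKO library.

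Cd79a, Cd79b and Igkc together had 32 and 53 counts in DKO and 13 and 9 in WT. Their summed level was 1.89 and 2.46 CPM in DKO and 0.938 and 0.781 CPM in WT, or 2.18 ± 0.400 and 0.859 ± 0.111 CPM (SD, n = 2 each). Both DKO sums were above both WT sums, as 19.8% of single tested genes were. The log2 ratio was 1.34, with a range of 1.14 to 1.52 with 1 library left out. Within the sum, Cd79b reversed to -1.24 without the first DKO library and Igkc to -0.37 without the second. With Ighm included, the B cell members summed to 165 and 149 CPM in DKO and 140 and 183 CPM in WT. Those groups overlapped, with a log2 ratio of -0.04. Ms4a1, Pax5, Ebf1 and Ighd are defining B cell markers outside the members. They summed to 5.56 and 5.10 CPM in DKO and 4.90 and 8.50 CPM in WT, with overlapping groups. Most of that sum was Ebf1, with 83 of 94 and 86 of 110 counts in DKO and 56 of 68 and 85 of 98 in WT. At few counts, the ratio of summed counts scaled by library size, DKO over WT, was 1.98 for Ighd and 0.352 for Pax5. With the 3 members added, the 8 defining markers other than Ighm summed to 7.45 and 7.56 CPM in DKO and 5.84 and 9.28 CPM in WT. Relative to the CD3 chains in TPM, the sum of the 3 members was 0.295% and 0.558% in DKO and 0.191% and 0.187% in WT.

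Lyz2 had 3 and 2 counts in DKO and 6 and 2 in WT, with overlapping groups and a log2 difference of -1.11 (edgeR adjusted p = 0.92, no filter), which was -0.35 without the first WT library. Its close paralog Lyz1 had 0 to 1 counts in a library. The 7 defining myeloid markers, Lyz2 among them, summed to 3.25 and 6.49 CPM in DKO and 6.35 and 4.77 CPM in WT. The lowest and the highest sum were both DKO.

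Counting error alone was also set against the difference between groups, by the ratio of summed counts scaled by library size with its exact 95% interval. The ratio for Cd74 was 0.622 (0.436 to 0.886) and that for H2-Aa 0.189 (0.019 to 0.991), both below 1. It was 2.76 (1.41 to 5.91) for Cd79a and 2.31 (1.03 to 5.87) for Igkc, both above 1. The interval held 1 for the other 6, among them Ighm at 0.968 (0.93 to 1.01) and Lyz2 at 0.413 (0.106 to 1.43). These intervals cover counting error only and compare these libraries, not the genotypes. For Cd74 and Igkc, 1 library held most of the counts of its group, and the groups overlapped.

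**Figure D3:**
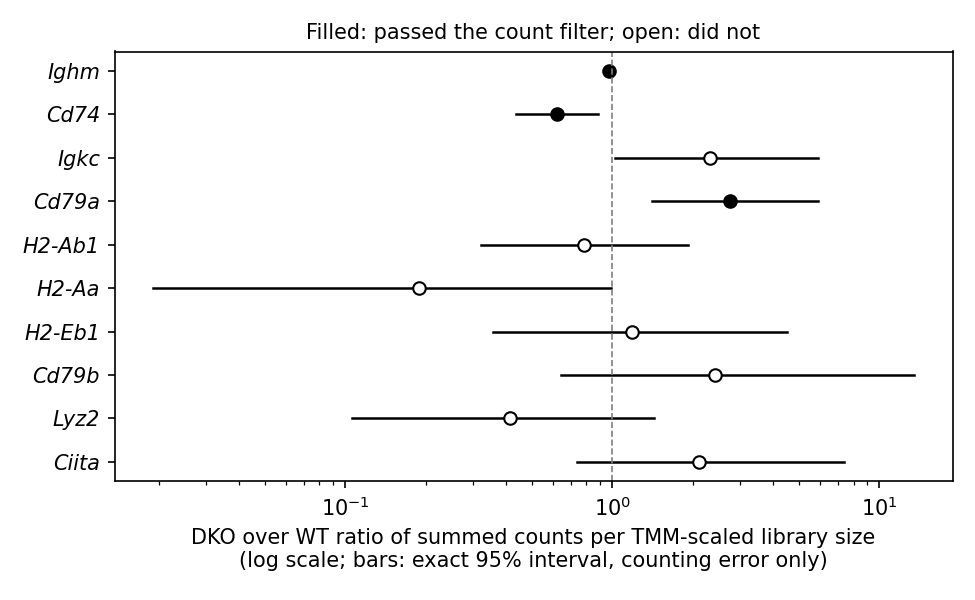
Ratio of library-size-scaled counts, DKO over WT, for each of the 10 members with its 95% counting interval, on a log axis with a line at 1. Ighm has the narrowest interval, 0.93 to 1.01, and 4 of the 10 intervals leave out 1.

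The plot of ratios shows how width follows depth. The interval for Ighm is narrow, and those for Cd79b, H2-Aa and Ciita each span several-fold.

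Other genes of the class II pathway were described from a list of 22 symbols (21 annotated, 15 tested). None was called by edgeR, and 2 (H2-Ob and Nfya) had an unadjusted p below 0.05, both higher in DKO, as 492 of all 12863 tested genes were. The median log2 difference of the 15 was 0.21, with 14 above 0, beside -0.015 and 6183 above 0 over all tested genes. In 7 of the 15 both DKO libraries were above both WT libraries, and in 0 below, against 19.8% and 18.8% of all tested genes. The T cell identity list leaned the same way, with a median of 0.107 and 15 of 19 genes above 0. In 6 of those 19 both DKO libraries were above both WT libraries, and in 0 below. The class I pathway list had a median of 0.034, with 9 of 17 genes above 0.

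H2-Ob, the beta chain of DO, which restrains the peptide-loading factor DM in B cells, had 271 and 339 counts in DKO and 104 and 84 in WT. These were 16.0 and 15.7 CPM in DKO and 7.50 and 7.29 CPM in WT. The libraries of each genotype lay close together and the groups were well apart. The log2 difference was 1.10 (SE 0.183), with an unadjusted p of 0.000256 and an edgeR adjusted p of 0.0822, which misses the threshold. It was above 0 in all 11 alternative settings, from 0.43 to 1.43, and passed the threshold in 5 of them, DESeq2 among them (adjusted p = 0.0421). With 1 library left out it stayed between 1.08 and 1.13 and passed in none of those 4 fits. In H2-Ob, 81.1% of the counts were on 1 transcript, and none of the other summed genes overlaps it on either strand (0 of 48858).

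Its partner H2-Oa, the DO alpha chain, stood at 1.48 and 1.90 CPM in DKO and 1.66 and 1.65 CPM in WT, within the same range. H2-DMa, a chain of DM, which exchanges peptides on class II, stood at 8.04 and 7.24 CPM in DKO and 5.05 and 7.46 CPM in WT. Its partners H2-DMb1 and H2-DMb2 had 6 counts or fewer in each library. Members of the pathway thus differed widely in level, with H2-Ob above each of the classical chains in counts in every library.

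Genes whose products bind the class II promoters were counted in every library. Nfya, a subunit of NF-Y, which acts widely beyond class II, stood at 27.9 and 30.8 CPM in DKO and 18.8 and 24.1 CPM in WT (log2 difference 0.46, SE 0.168, edgeR adjusted p = 0.518). Rfx5, the DNA-binding subunit of RFX, stood at 13.7 and 12.5 CPM in DKO and 11.1 and 7.81 CPM in WT (log2 difference 0.46, edgeR adjusted p = 0.648). The other subunits differed less, with log2 differences of 0.09 for Rfxap, 0.11 for Rfxank, 0.21 for Nfyb and 0.004 for Nfyc. Groups overlapped for Rfxap, Rfxank and Nfyc. Creb1, which binds between the other factors, stood at 55.7 and 57.1 CPM in DKO and 54.6 and 50.7 CPM in WT. The genes of the RFX and NF-Y subunits each stood at 7.57 CPM or more in every library, whereas Ciita stayed below 1 CPM. Of the lysosomal enzymes, Ctss, which trims the invariant chain, stood at 90.2 and 77.0 CPM in DKO and 69.1 and 93.7 CPM in WT. Ifi30, a thiol reductase of antigen processing, stood at 13.1 and 11.0 CPM in DKO and 9.38 and 8.33 CPM in WT (log2 difference 0.45, edgeR adjusted p = 0.633).

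**Figure D4:**
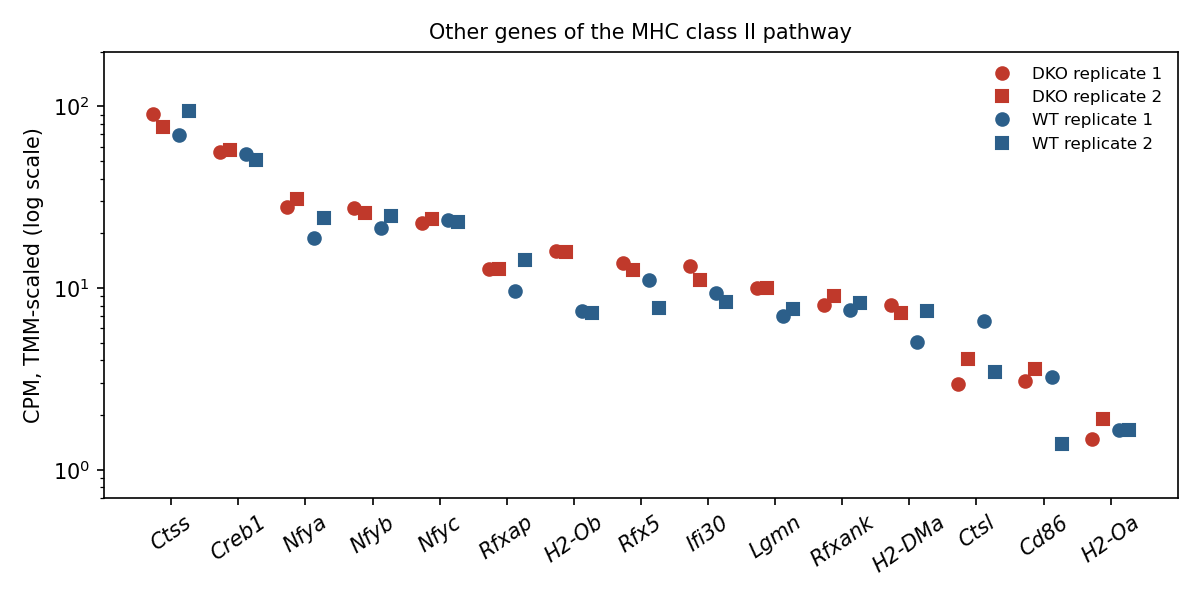
CPM of the tested genes of the other class II pathway list in each library, DKO left of WT, on a log axis. H2-Ob is at 16.0 and 15.7 CPM in DKO and 7.50 and 7.29 CPM in WT. The members are not drawn, and H2-Aa, H2-Ab1, H2-Eb1 and Ciita were below 1 CPM in every library.

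The pathway plot shows the tested neighbours of the members, not the members themselves. The processing enzymes and promoter factors drawn there stood above the classical chains in CPM, and H2-Ob is the gene of the pathway list with the smallest unadjusted p.

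Other B cell genes numbered 31 symbols, of which 30 were annotated and 7 tested. None was called and 0 had an unadjusted p below 0.05, while 11 had 3 counts or fewer in each library, among them Blk and Ly6d at 0. Those counted at the highest level were Tnfrsf13b, the receptor TACI, at 16.9 and 14.0 CPM in DKO and 9.59 and 15.5 CPM in WT, Cd72 and Ebf1. Cd72 stood at 8.58 and 5.57 CPM in DKO and 4.90 and 7.63 CPM in WT, and Ebf1, a factor of early B cells, at 4.91 and 3.99 CPM in DKO and 4.04 and 7.37 CPM in WT. Groups overlapped for all 3. Pou2af1, a coactivator of octamer-binding factors, stood at 3.13 and 5.52 CPM in DKO and 2.67 and 2.25 CPM in WT (log2 difference 0.82, SE 0.397, edgeR adjusted p = 0.653). Bank1, an adaptor of B cell signalling, stood at 1.42 and 1.25 CPM in DKO and 0.938 and 0.434 CPM in WT (log2 difference 0.94, SE 0.721, edgeR adjusted p = 0.809), and its difference was 1.60 without the first WT library.

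Other myeloid genes numbered 25, of which 6 were tested, 0 were called, 0 had an unadjusted p below 0.05 and 9 had 3 counts or fewer in each library. S100a8, S100a9, Camp and Elane, abundant in neutrophils and their precursors, were the 4 genes of this list at 0 throughout. Other genes of that lineage had a few counts. Mpo had 2 and 13 counts in DKO and 2 and 0 in WT, and Ngp had 1 and 4 in DKO and 2 and 0 in WT. Cst3, a secreted protease inhibitor, stood at 10.9 and 11.5 CPM in DKO and 8.08 and 11.4 CPM in WT, and Itgam, which encodes CD11b, at 1.77 and 2.97 CPM in DKO and 2.45 and 2.78 CPM in WT. Cybb, the catalytic subunit of the phagocyte oxidase, stood at 0.946 and 1.21 CPM in DKO and 0.433 and 0.174 CPM in WT (log2 difference 1.78, SE 0.875, edgeR adjusted p = 0.656), with 2.59 without the first WT library and 1.31 without the second. Fcgr3, an Fc receptor, stood at 1.36 and 2.27 CPM in DKO and 0.938 and 1.39 CPM in WT, with 99.0% of its counts on a transcript annotated as a retained intron.

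Of 15 dendritic cell genes, 5 were tested, 0 were called and 6 had 3 counts or fewer in each library. Ccr7, which naive T cells also express, stood at 148 and 151 CPM in DKO and 136 and 144 CPM in WT. Irf8 stood at 4.02 and 4.04 CPM in DKO and 1.59 and 3.30 CPM in WT (log2 difference 0.73, edgeR adjusted p = 0.711, and 1.34 without the second WT library), and Bst2 at 5.80 and 4.87 CPM in DKO and 5.84 and 8.33 CPM in WT. Zbtb46, a factor of classical dendritic cells, stood at 0.414 and 0.789 CPM in DKO and 1.80 and 0.347 CPM in WT. The 4 defining markers summed to 0.651 and 0.974 CPM in DKO and 1.88 and 0.520 CPM in WT, so the highest and the lowest sum were both WT.

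MHC class I, which nearly all cells express, gives a scale for the class II levels. B2m, its light chain, stood at 881 and 742 CPM in DKO and 760 and 938 CPM in WT, and H2-K1, a heavy chain, at 876 and 770 CPM in DKO and 629 and 827 CPM in WT. H2-D1, another heavy chain, stood at 585 and 516 CPM in DKO and 480 and 637 CPM in WT. None of the 17 class I pathway genes was called, and 1 had an unadjusted p below 0.05. Of the 19 T cell identity genes 0 were called, with 1 at an unadjusted p below 0.05, beside 8.18% of all tested genes at that p. Tcf7, a transcription factor of naive T cells, stood at 1023 and 914 CPM in DKO and 911 and 1201 CPM in WT, and Bcl11b, a factor of T cell commitment, at 419.8 and 417 CPM in DKO and 335 and 406 CPM in WT. Cd4 stood at 492 and 523 CPM in DKO and 364 and 424 CPM in WT (log2 difference 0.36, SE 0.161, edgeR adjusted p = 0.616).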

How the data were processed

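RNA from 2 DKO and 2 WT sorts was made into libraries with a stranded low-input total RNA kit after depletion of ribosomal RNA, per the labels' protocols. The authors deposited estimated counts, TPM and effective lengths per transcript, in the column layout of kallisto. The submitters' processing notes name kallisto and the builds GRCm38 and mm10. The version, strand setting and transcript set: not given in the sources used here.

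Of 126782 transcripts, 125182 (98.7%) were joined to genes of the mouse annotation of GRCm38. The 1600 without a gene, holding 0.822% and 0.833% of DKO counts and 0.841% and 0.852% of WT counts, were left out. Estimated counts were summed per gene and rounded to whole numbers. Genes were filtered with filterByExpr, normalised by TMM and tested with edgeR 4.0.16 (robust quasi-likelihood, R 4.3.3) for DKO minus WT, with Benjamini-Hochberg adjustment over 12863 genes and a threshold of 0.05. Members that missed the filter were read from the same fit without it. CPM use the TMM library sizes. Reads of near-identical genes are shared out by the estimation, and antisense partners may not be told apart.

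Alternatives were no filter, DESeq2 1.42.0, total count scaling, protein-coding genes only, replicate number as a block, limma 3.58.1 on log2(TPM + 0.1) and log2(TPM + 1), and each library left out. The fits were checked on simulated counts. Intervals are exact at 95% and, like the floor of 3 counts, cover counting error only. Replicates of a group differed by more than sampling noise. The labels speak of pairs of mice without saying that a number marks a pair or that each library is 1 animal.

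Besides all members, the text names from each list the 3 genes of highest mean CPM, those past the threshold and, for the pathway, B cell, myeloid and dendritic cell lists, the 3 of smallest p, plus Btg1, Btg2 and the gate markers. Further genes named for their low counts, as partners or as subunits of RFX and NF-Y were picked after their values were seen. The members and lists were chosen with earlier results of these data known. Cd74 has no sequence printed. A result on 1 B cell gene is not reported here.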

Additional observations from a re-analysis of the deposited data

How the results depend on the processing

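No member passed the threshold in any alternative. Of 101 member values under alternatives, 87 kept their sign and 14 reversed. Ighm turned to 0.29 with total count scaling and to 0.34 and 0.31 with limma on TPM (pseudocount 0.1 and 1), where the median of all tested genes moved to 0.32, 0.27 and 0.084 against -0.015. H2-Ab1 turned to 0.016 and 0.007 with limma. With each library left out in turn, log2 differences ranged from -0.23 to 0.15 for Ighm, -1.21 to 0.053 for Cd74, -0.37 to 1.82 for Igkc, 0.71 to 3.66 for Cd79a, -5.00 to -1.47 for H2-Aa, -1.60 to -0.35 for Lyz2, 0.56 to 2.17 for Ciita, -5.67 to 0.57 for H2-Ab1, -0.90 to 5.04 for H2-Eb1 and -1.24 to 5.49 for Cd79b. The summed class II log2 ratio ranged from -1.03 to 0.19 and that of the B cell members from -0.22 to 0.16. By total count and by TPM the B cell sum was 0.31 and 0.36, and without Ighm 1.69 and 1.71.

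Genes called higher numbered 7 and lower 9. They were 141 and 254 without a filter, 41 and 124 with DESeq2, 158 and 63 with total count scaling, 35 and 16 with protein-coding genes only, 1 and 5 with limma at 0.1, and 1 and 4 at 1. With 1 library left out they ranged from 2 to 19 higher and 7 to 71 lower. Of the other class II pathway genes 0 were called, and 1, H2-Ob, with no filter, DESeq2, total count scaling, protein-coding genes only or the block. The cause was not tested.

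With replicate number as a block, 53 genes were called higher and 90 lower, and H2-Ob passed (log2 1.10, adjusted p = 0.0105). Deviations of same-numbered libraries correlated at -0.347 over genes. That value cannot decide whether the mice were paired. The main fit did not read the numbers as pairs because the labels do not say that a number marks a pair. Whether the libraries pair in another way was not tested.

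Depth limits the 9 members other than Ighm, of which 8 had 3 counts or fewer in at least 1 library.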

Other observations

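By the smallest Euclidean distance between centred log2 CPM profiles over the 4 libraries, the genes most like the summed class II members were Atp5mpl (0.215), Rnf113a2 (0.275), Tmem242 (0.276), Btbd2 (0.288) and Spsb3 (0.291), among 7294 protein-coding genes with a median distance of 0.989. Atp5mpl, a subunit of ATP synthase, stood at 13.5 and 14.2 CPM in DKO libraries and 12.3 and 24.3 CPM in WT libraries. All 5 were highest in the second WT library, as the class II sum was, and the likeness rests on 4 points.

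Other cell types were read from their own lists. Of 11 NK cell genes 3 were tested and 0 called. Prf1, which encodes perforin, stood at 21.9 and 14.5 CPM in DKO and 15.8 and 20.3 CPM in WT, and Eomes, a T-box factor, at 2.78 and 4.96 CPM in DKO and 1.88 and 3.12 CPM in WT, both with overlapping groups. Klrd1, an NK receptor chain, stood at 5.26 and 3.80 CPM in DKO and 1.95 and 2.08 CPM in WT (log2 difference 1.17, SE 0.370, edgeR adjusted p = 0.414). The defining NK markers summed to 0.473 and 0.0928 CPM in DKO and 0 and 0.260 CPM in WT, with Ncr1 at 0 in each. The CD8 alpha gene Cd8a had 1 and 5 counts in DKO and 6 and 1 in WT, whereas Cd8b1, the beta chain, stood at 8.58 and 13.0 CPM in DKO and 6.78 and 7.46 CPM in WT. The 4 haemoglobin genes listed summed to 0 and 1.72 CPM in DKO and 0.288 and 0.260 CPM in WT, among them Hbb-bs with 0 and 11 counts in DKO and 4 and 3 in WT. Alas2, the erythroid enzyme of haem synthesis, had 4 counts or fewer in each library, and Itga2b, a platelet integrin, had 16 and 14 counts in DKO and 26 and 1 in WT. Of 17 class I and 19 T cell identity genes none was called.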
